A study of Homo sapiens with 6 samples.

Results

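The 10 genes described here mark intestinal differentiation or direct it, and were chosen by name, by a rule that uses no measured value, although earlier results of these data were known when it was written. They comprise the transcription factors CDX1, CDX2, HNF4A and ATOH1 and the differentiation products MUC2, VIL1, KRT20, FABP1, ALPI and CEACAM5. Each was found through its Ensembl gene identifier, and all 10 were present among the 26445 probe sets of the series, 1 probe set per gene. With doxycycline induction of KIAA1199 in SW480 cells, 1 of the 10, ATOH1, passed the limits that the study used for a changed gene, with a mean level 1.38-fold higher in induced cells (log2 fold change 0.47, standard error 0.081, n = 3 experiments, limma with the experiment as a block, unadjusted p = 0.00447, adjusted p = 0.349). Of all 26445 probe sets, 1543, or 5.83%, passed the same limits, so 1 gene in 10 is no result about the group. The ATOH1 call was lost in the methods' t-test, which is the study's paired test (unadjusted p = 0.0263, adjusted p = 0.449), and in limma without the block (unadjusted p = 0.0333, adjusted p = 0.489). The means of the other 9 genes differed between induced and uninduced cells by a log2 value of at most 0.12 in either direction, and none of them passed the limits.

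The SW480 line was derived from a human colorectal cancer. Clone 13, a single clone of it, carries a tetracycline repressor and a KIAA1199 construct that doxycycline switches on, and both vectors were present in both groups. Cells of the doxycycline group had received the drug for 48 h at 50 ng/ml according to the labels, or at a dose within the wider range that the study's methods give, and cells of the uninduced group were labelled as not induced. The treatment note in the labels stands on all 6 samples, so the groups follow the induction label and the titles. Both groups grew in the same medium with Tet-system-approved serum, blasticidin S and G418. Total RNA from 3 independent experiments, 1 array per group and experiment, was hybridized to 6 Affymetrix GeneChip Human Exon 1.0 ST arrays. No array of doxycycline-treated cells without the construct was among the 6, so effects of the drug and of KIAA1199 cannot be told apart. The study's methods cite earlier work in which such doses left microarray transcript levels unaffected, which was not tested here. The level of KIAA1199 itself was not analysed here, because the table of gene names used here holds no Ensembl identifiers; for the same reason the 10 genes, whose identifiers came with their selection, are the only ones named. All values are log2 expression levels, so a difference of 1 is a 2-fold change, and their precision is limited by the 3 arrays per group.

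The intestinal epithelium renews itself from crypt stem cells, whose daughters become absorptive cells or secretory cells. The homeobox factors CDX1 and CDX2 set the intestinal identity of these cells, and the nuclear receptor HNF4A acts with them on genes of absorption and the brush border. ATOH1, a basic helix-loop-helix factor that Notch signaling represses, directs progenitors into the secretory lineage, including the goblet cells that make the gel-forming mucin MUC2. Villin (VIL1) bundles actin in the microvilli, intestinal alkaline phosphatase (ALPI) sits on their surface, the fatty acid-binding protein FABP1 carries lipids in absorptive cells, keratin 20 (KRT20) builds filaments in mature surface cells, and CEACAM5, the carcinoembryonic antigen, is an adhesion glycoprotein of the apical membrane.

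Stretches of 250 bases before the annotated start were taken from RefSeq (GRCh38.p14) for 3 genes: ATOH1, which passed the limits, and MUC2 and FABP1, which did not pass them but whose induced and uninduced levels did not overlap. The levels of 2 of the 10 genes were thus apart, where those of 16.6% of all probe sets were, and the 3 stretches are shown as examples. The stretches lie at chr4:93828503-93828752 on the plus strand for ATOH1, at chr11:1074624-1074873 on the plus strand for MUC2 and at chr2:88128063-88128312 on the minus strand for FABP1, and are written from 5′ to 3′ along the gene. Capitals mark E-boxes (CANNTG, the same on both strands), the kind of site that basic helix-loop-helix factors such as ATOH1 bind, and the short core ATAAA of CDX sites, read on both strands and so also as TTTAT. The core overlaps the TATA box TATAAA, which was also searched on both strands.
ATOH1: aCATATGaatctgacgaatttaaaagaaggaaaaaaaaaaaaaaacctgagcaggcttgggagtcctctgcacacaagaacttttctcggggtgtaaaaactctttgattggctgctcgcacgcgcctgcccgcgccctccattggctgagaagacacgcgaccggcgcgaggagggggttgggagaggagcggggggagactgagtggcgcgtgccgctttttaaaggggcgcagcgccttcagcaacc
MUC2: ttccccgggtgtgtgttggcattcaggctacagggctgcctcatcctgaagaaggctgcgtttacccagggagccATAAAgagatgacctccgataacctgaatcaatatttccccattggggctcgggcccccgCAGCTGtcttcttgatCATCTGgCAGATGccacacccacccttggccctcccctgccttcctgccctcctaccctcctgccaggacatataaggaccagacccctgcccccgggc
FABP1: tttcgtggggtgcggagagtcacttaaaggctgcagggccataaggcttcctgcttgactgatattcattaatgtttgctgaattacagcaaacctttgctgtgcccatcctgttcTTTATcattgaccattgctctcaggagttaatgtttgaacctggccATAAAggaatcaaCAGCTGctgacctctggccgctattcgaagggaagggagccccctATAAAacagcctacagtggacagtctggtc

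The ATOH1 stretch held 1 E-box and no CDX core, the MUC2 stretch 3 E-boxes and 1 core, and the FABP1 stretch 1 E-box and 3 cores, 1 of them inside its TATA box. RefSeq entries were matched for 8 of the 10 genes, with 2 starts for HNF4A, and CDX1 and VIL1 were not matched. Of these 9 stretches, 6 held an E-box, 5 a CDX core and 1 a TATA box, where 61.8%, 32.7% and 10.7% of all 35116 such stretches did. CDX2 held 2 cores, KRT20 3 and CEACAM5 1. These letter matches are descriptions of the sequences and were not tested for binding.

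ATOH1 (ENSG00000172238_at), the secretory lineage factor, had levels of 5.70, 5.38 and 5.84 without doxycycline in experiments 1, 2 and 3, and 6.32, 5.82 and 6.19 with it. The group means were 5.64 ± 0.24 (SD, n = 3) and 6.11 ± 0.26 (SD, n = 3). The groups overlapped, since the induced array of experiment 2 lay just below the uninduced array of experiment 3, and experiment 2 was the lowest of the 3 in both groups. Within each experiment the induced array was the higher one, by 0.61, 0.44 and 0.35. The resulting log2 fold change of 0.47 had a 95% interval from 0.24 to 0.69, a fold change of 1.38 with an interval from 1.18 to 1.62. The limits of the study ask for an unadjusted p under 0.025 together with at least a 1.2-fold change, and ATOH1 met both in limma with the experiment as a block (unadjusted p = 0.00447, adjusted p = 0.349). It missed the p limit, though not the fold limit, in the methods' t-test, paired and 2-tailed on the same values, and in limma when the block was left out. In limma with the block 1053 probe sets shared the adjusted value of 0.349, the lowest of that fit. Turning the signs of the 3 differences in all ways, an exact permutation test, gave a two-sided p = 0.25, below which 3 pairs cannot go.

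**Figure D1:**
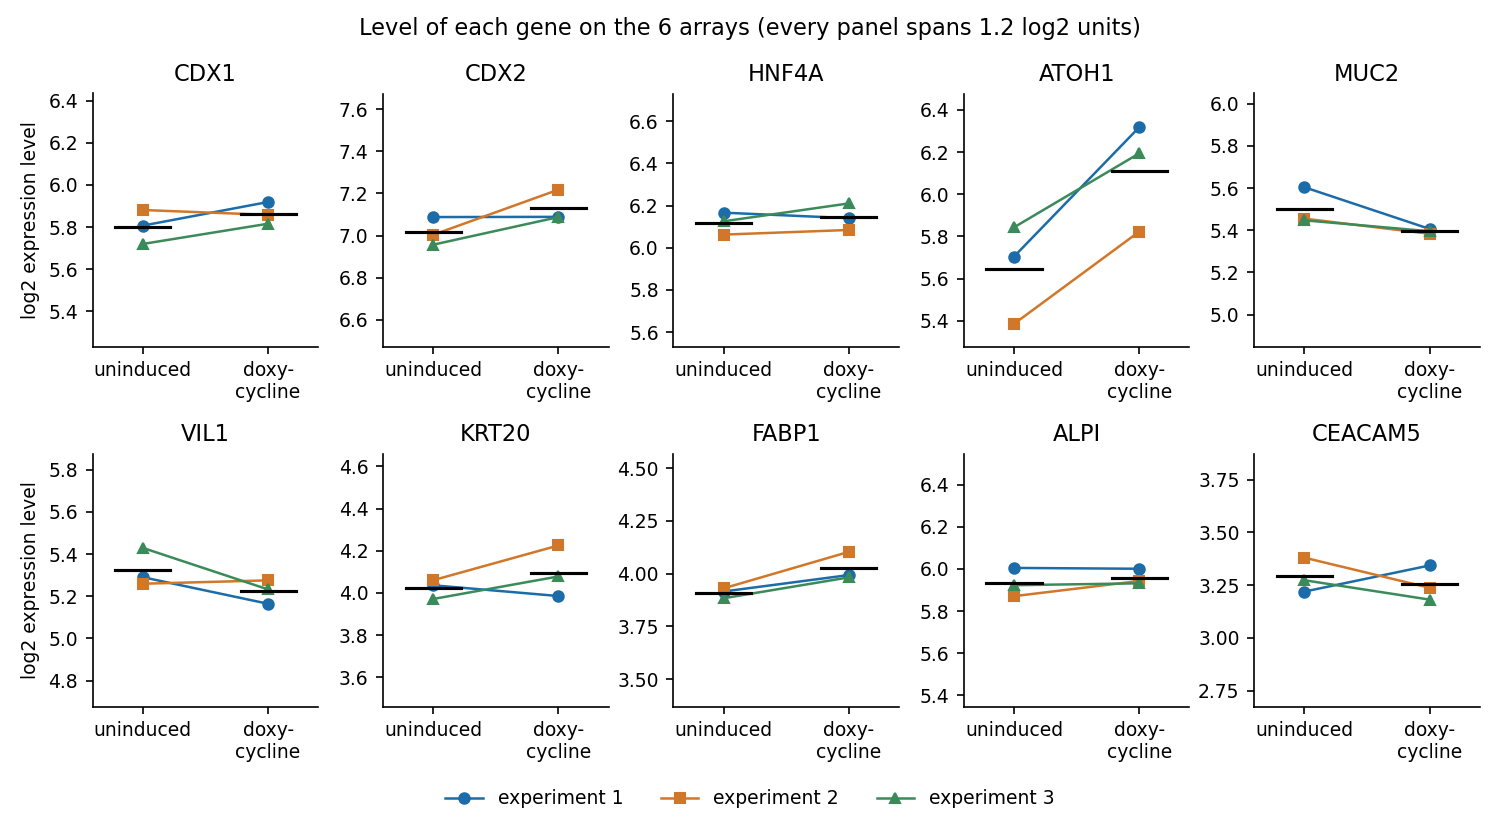
Log2 expression level (y axis) of each of the 10 genes in uninduced and doxycycline-treated SW480 Clone 13 cells (x axis), with 1 point per array, a line joining the 2 arrays of an experiment, and a black bar at each group mean of 3 arrays. In the ATOH1 panel all 3 lines climb, by 0.35 to 0.61, while in the other 9 panels the group means lie within 0.12 of each other.

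MUC2 (ENSG00000198788_at), the goblet cell mucin and a product of the lineage that ATOH1 directs, had levels of 5.60, 5.46 and 5.45 without doxycycline and of 5.41, 5.38 and 5.40 with it. All 3 induced arrays lay below all 3 uninduced ones, and the gap between the groups was small, since the uninduced arrays of experiments 2 and 3 were only slightly above the induced arrays. The differences were -0.20, -0.07 and -0.05, with a mean of -0.11 (standard error 0.068, 95% interval -0.30 to 0.08, limma unadjusted p = 0.19, adjusted p = 0.588). MUC2 was therefore not past the limits, and its mean was on the other side of 0 from that of ATOH1. The pair was set side by side after its values were seen, so no test is given. The ATOH1 difference exceeded the MUC2 difference by 0.81, 0.51 and 0.40 in the 3 experiments, a mean of 0.57 ± 0.21 (SD, n = 3). ATOH1 had the largest difference of the 10 genes in every experiment, so the excess is not particular to MUC2. Over CDX2 it was 0.61, 0.22 and 0.22.

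CDX2 (ENSG00000165556_at), the homeobox factor that sets intestinal identity, had levels of 7.09, 7.00 and 6.96 without doxycycline and of 7.09, 7.22 and 7.09 with it. The uninduced array of experiment 1 had the same level as the induced array of experiment 3, so the groups touched. The difference was close to nil in experiment 1, at 0.001, and was 0.21 and 0.13 in experiments 2 and 3, with a mean of 0.12 (standard error 0.074, 95% interval -0.09 to 0.32, limma unadjusted p = 0.195, adjusted p = 0.592). Its paralog CDX1 (ENSG00000113722_at) had levels of 5.81, 5.88 and 5.72 without and of 5.92, 5.86 and 5.82 with doxycycline. These groups overlapped, and CDX1 differed by 0.11, -0.02 and 0.10, a mean of 0.06 (standard error 0.067, 95% interval -0.12 to 0.25, limma unadjusted p = 0.41, adjusted p = 0.752). HNF4A (ENSG00000101076_at), the nuclear receptor of absorptive genes, had levels of 6.17, 6.06 and 6.12 without and of 6.14, 6.08 and 6.21 with doxycycline. Its groups overlapped. The mean difference of HNF4A was 0.03 (standard error 0.064, 95% interval -0.15 to 0.21, limma unadjusted p = 0.695, adjusted p = 0.899), which leaves out a change of 1.2-fold or more in either direction at that confidence level.

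Of the absorptive cell products, FABP1 (ENSG00000163586_at) had levels of 3.92, 3.93 and 3.88 without doxycycline and of 3.99, 4.10 and 3.98 with it. All 3 induced arrays of this lipid carrier lay above all 3 uninduced ones. The differences of 0.08, 0.17 and 0.10 had a mean of 0.12 (standard error 0.063, 95% interval -0.06 to 0.29, limma unadjusted p = 0.139, adjusted p = 0.531), below the fold change minimum. VIL1 (ENSG00000127831_at), the actin bundler of the microvilli, had levels of 5.29, 5.26 and 5.43 without and of 5.16, 5.28 and 5.23 with doxycycline. Its groups overlapped, and the induced array was lower in experiments 1 and 3 but not in experiment 2. The mean difference was -0.10 (standard error 0.075, 95% interval -0.31 to 0.10, limma unadjusted p = 0.241, adjusted p = 0.633).

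ALPI (ENSG00000163295_at), the brush border phosphatase, had levels of 6.005, 5.871 and 5.923 without doxycycline and of 6.001, 5.943 and 5.932 with it. This was the smallest mean difference of the 10 genes, 0.026 (standard error 0.062, 95% interval -0.15 to 0.20, limma unadjusted p = 0.701, adjusted p = 0.901), and the groups overlapped. Other alkaline phosphatase genes are close in sequence to ALPI, and whether its probes separate them was not analysed here. KRT20 (ENSG00000171431_at), the keratin of mature surface cells, had levels of 4.04, 4.06 and 3.97 without and of 3.98, 4.22 and 4.08 with doxycycline. Its groups overlapped, and the differences of -0.05, 0.17 and 0.11 were of both signs (mean 0.07, standard error 0.075, 95% interval -0.14 to 0.28, limma unadjusted p = 0.383, adjusted p = 0.735). CEACAM5 (ENSG00000105388_at), which also has close relatives in its family, had levels of 3.22, 3.38 and 3.27 without and of 3.34, 3.24 and 3.18 with doxycycline. It was higher in the induced array in experiment 1 and lower in experiments 2 and 3, and the mean difference was -0.04 (standard error 0.083, 95% interval -0.27 to 0.19, limma unadjusted p = 0.68, adjusted p = 0.893).

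**Figure D2:**
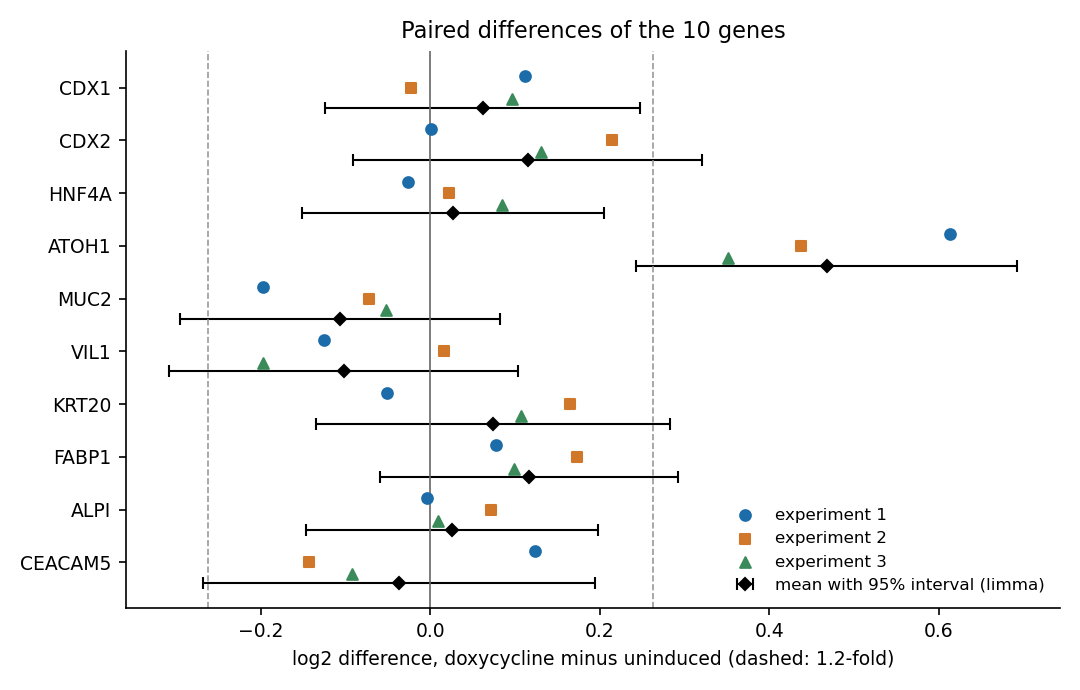
Log2 difference between the doxycycline and the uninduced array (x axis) of each gene (y axis) in experiments 1, 2 and 3, with the mean and its 95% limma interval as a black diamond and bar; dashed lines mark a 1.2-fold change. Only the ATOH1 interval, from 0.24 to 0.69, lies wholly on one side of 0.

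The 10 genes were then set beside all probe sets of the same fit. The 5.83% of probe sets past the study's limits comprised 2.9% raised and 2.94% lowered by doxycycline, and ATOH1 was among the raised ones. With the methods' t-test 0 of the 10 genes passed, and 2.18% of all probe sets did. At an adjusted p under 0.05 limma called 0 of the 10 genes and 0 of all probe sets, although 3248 probe sets, or 12.3%, had an unadjusted limma p under 0.05, with ATOH1 as the 1 member of the 10, and 2755, or 10.4%, did in the methods' t-test, again with ATOH1 alone of the 10. The mean difference was above 0 for 7 genes and below 0 for 3. The median log2 fold change was 0.044 over the 10 genes and 0.002 over all probe sets, and the median absolute value was 0.088 and 0.10.

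In 4 of the 10 genes the 3 experiments gave differences of 1 sign, above 0 for ATOH1, CDX2 and FABP1 and below 0 for MUC2, and 36.5% of all probe sets were of that kind, 18.9% above 0 and 17.6% below it. The groups did not overlap in 2 of the 10, FABP1 with the induced arrays higher and MUC2 with them lower, against 16.6% of all probe sets, 8.64% higher and 7.93% lower. An absolute log2 fold change as large as that of ATOH1 was reached by 4.0% of the probe sets, while one as large as that of FABP1, the next largest among the 10 genes, was reached by 44.4%. The 95% intervals of CDX1, HNF4A and ALPI lay within a 1.2-fold change on both sides. For the other 6 genes that did not pass the limits, the interval held 0 and also reached past 1.2-fold on 1 side, so a change of that size could not be told from none with 3 experiments.

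**Figure D3:**
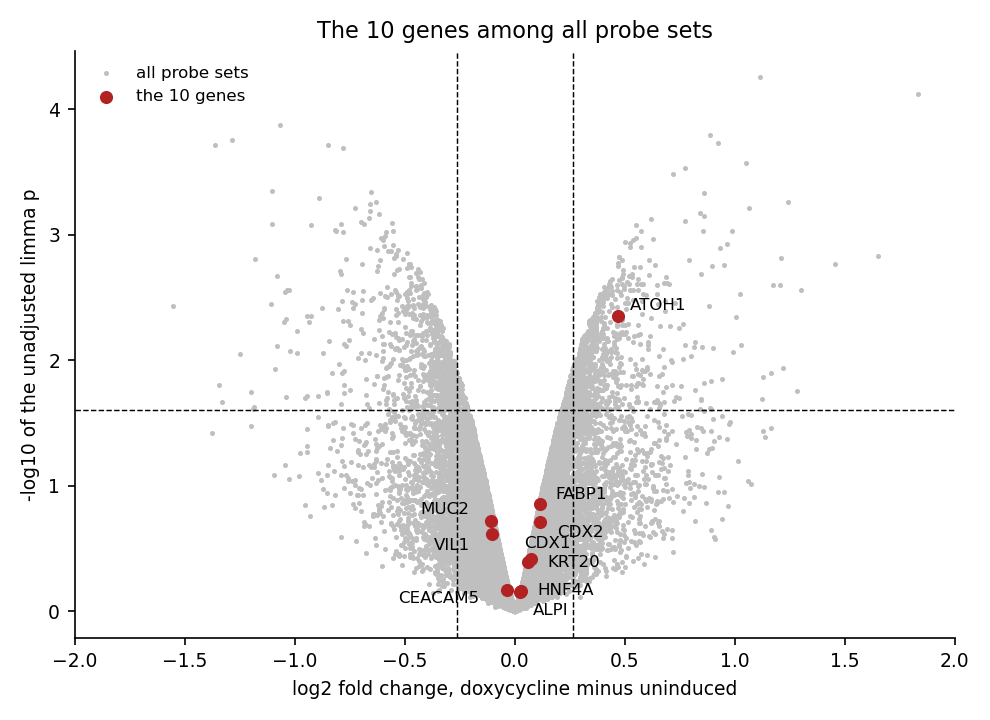
Log2 fold change (x axis) against -log10 of the unadjusted limma p (y axis) for all 26445 probe sets in grey and the 10 genes in red, with dashed lines at the study's limits. ATOH1 lies in the upper right field beyond both limits, together with 2.9% of all probe sets, and the other 9 genes lie near the centre.

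The probe sets of these genes differed in signal, which bears on how well a change could be measured. Signals of different probe sets depend on their probes and do not rank the genes by transcript amount. Mean levels of CEACAM5 and FABP1 were within the lowest quartile of all probe sets, above 14.8% and 24.3% of them, and KRT20 lay just over that quartile, above 25.4%. Those of VIL1, MUC2, CDX1, ATOH1, ALPI and HNF4A were above 43.1% to 59.5%, and CDX2 was in the highest quartile, above 75.8%. Calls of detection were not among the data used here. Whether the 10 probe sets were above background in SW480 cells was therefore not analysed. This holds for the weak ones of CEACAM5, FABP1 and KRT20 and for the others. Between experiments the paired differences varied with an SD whose median was 0.24 for probe sets in the lowest quartile of levels and 0.10 for those in the highest. Of the 10 genes, 8 had a smaller SD than the median of their quartile. The exceptions were ATOH1, with 0.13 against 0.12, and CDX2, with 0.11 against 0.10.

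**Figure D4:**
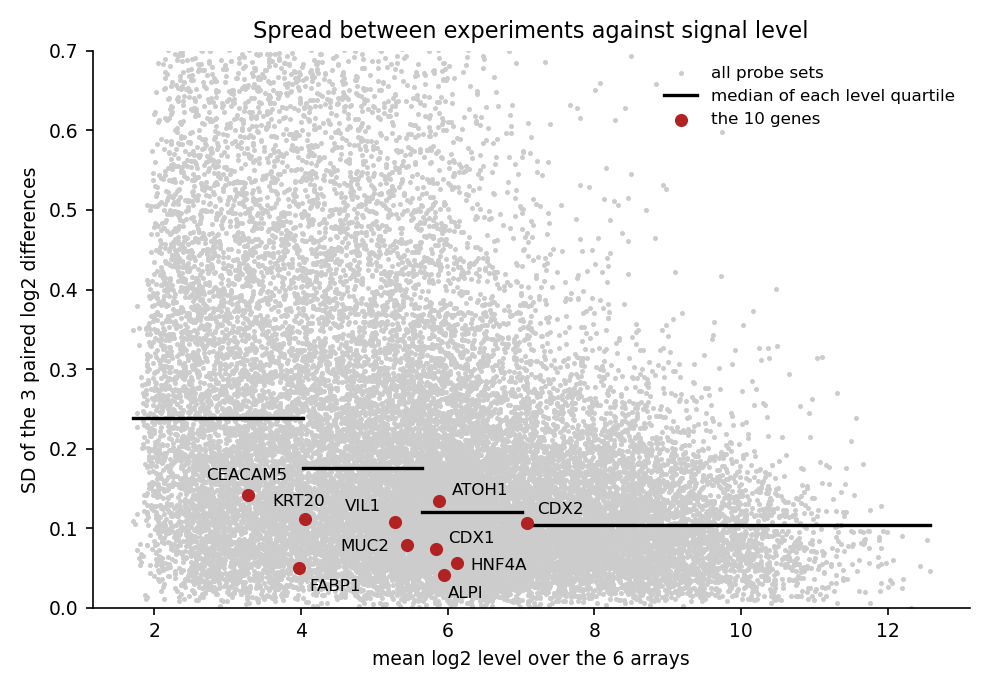
SD of the 3 paired log2 differences (y axis) against the mean log2 level over the 6 arrays (x axis) for all probe sets in grey and the 10 genes in red; black bars are the medians of the level quartiles, and 1174 probe sets lie above the plotted range. The medians fall from 0.24 to 0.10, and 8 of the 10 genes lie below the bar of their quartile.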

How the data were processed

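The 6 exon arrays compare SW480 Clone 13 cells that had or had not received doxycycline. The values that the authors deposited are log2 levels, 1 per Ensembl gene identifier and array, for 26445 probe sets. The submitters' processing notes name RMA, and the annotation version is not given in the sources used here. All arrays had the same median, 5.66, and sorted values never lay more than 0.024 apart, so no further normalization was applied.

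All probe sets were fitted together in limma 3.58.1 under R 4.3.3 (lmFit, eBayes; 2-sided; doxycycline minus uninduced), with the experiment as a block after the study's paired test, and Benjamini-Hochberg adjustment covered the whole table. The fits were checked on simulated data. A probe set counted as past the study's limits at an unadjusted p under 0.025 if it also changed at least 1.2-fold. The 10 genes and all gene lists were chosen with earlier results of these data known, and all 10 genes are named in the text. Further lists of intestinal, stem cell, epithelial and other cell type genes were planned but not analysed here, because no table used here pairs their symbols with Ensembl identifiers.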

Additional observations from a re-analysis of the deposited data

How the results depend on the processing

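The removal of the level trend was chosen after the data were seen. ATOH1 was 0.34 to 0.61 higher with doxycycline over the 16 alternatives, with adjusted p-values from 0.172 to 0.847, and past the study's limits in 9. Among the 10 genes the count past the limits was 0 rather than 1 with no replicate block, with the methods' t-test and with a fold change minimum of 1.5. With the block it was 1 whichever experiment was left out, with ATOH1 at 0.39, 0.48 and 0.53 without experiments 1, 2 and 3. Without the block and with 1 array left out it was 0, or 1 without doxycycline array 2. The other 9 genes passed the limits in no alternative. Of these, HNF4A, ALPI and CEACAM5 changed sign. HNF4A ranged from -0.0020 (without experiment 3) to 0.054 with experiments left out. With no block it was -0.0008 without uninduced array 2 and -0.0057 without doxycycline array 3. ALPI was at -0.0053 without the block and that uninduced array. CEACAM5 ranged from -0.12 to 0.016 (without experiment 2) and was at 0.0077 without the block and the same uninduced array. ATOH1 and the other 6 kept their direction, which was fixed where only the test changed. Leaving out an experiment could not reverse ATOH1, CDX2, FABP1 or MUC2, each of 1 sign in all 3. KRT20 lay between 0.009 and 0.14, CDX1 0.02 and 0.10, CDX2 0.066 and 0.17 and FABP1 0.078 and 0.14. VIL1 lay between -0.16 and -0.051, and MUC2 -0.135 and -0.056. CEACAM5 and FABP1 have no value where the dimmest 25% of probe sets are left out.

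Over all probe sets the count past the limits, 1543, was 1050 with no replicate block, 577 with the methods' t-test and 238 with a fold change minimum of 1.5. It was 1344, 994 and 986 without experiments 1, 2 and 3. Without the block it was 993, 696 and 1361 without the uninduced and 997, 1332 and 770 without the doxycycline arrays of experiments 1, 2 and 3. The cause was not tested. The count at an adjusted p under 0.05 was 0 throughout. As a check of the pairing, deviations from the group means were correlated between arrays: r was 0.039, 0.049 and 0.129 within the experiments and between -0.092 and 0.044 across them. This leaves the pairing unsettled; the block follows the study's paired test. Settings planned for other intestinal genes were not run.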
